A study of Mus musculus with 4 samples.

Results

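The genes described here encode the G1 brake and accelerator of the cell cycle: the CDK inhibitors Cdkn1a, Cdkn1b, Cdkn2a, Cdkn2b and Cdkn2c, the D-type cyclins Ccnd1, Ccnd2 and Ccnd3, and their kinases Cdk4 and Cdk6. They were chosen by gene symbol, and all 10 were present among the 21878 rows of each of 4 expression tables of cultured mouse liver cells. Different origins were compared in liver progenitor-like cells, which are proliferating cells obtained when adult liver cells are cultured in transition and expansion media. HepLPC (n = 2 libraries) came from hepatocytes, listed in the protocol with tdTomato mice given AAV8-TBG-Cre, a virus whose Cre is driven by a hepatocyte promoter. NPC_LPC (n = 2 libraries) came from non-parenchymal cells, listed with AlbCreERT/R26GFP mice, in which an albumin promoter drives an inducible Cre. All animals were C57BL/6 and 6 to 8 weeks old per the labels, and 8 weeks old per the protocol. If mice were used as listed, line and virus follow the origin and cannot be told apart from it. The cell type label of HepLPC mentions either source, and the groups follow the titles.

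D-type cyclins bind CDK4 and CDK6, and the complexes phosphorylate the retinoblastoma protein RB, which frees E2F factors to switch on genes of DNA synthesis. INK4 proteins (from Cdkn2a, Cdkn2b and Cdkn2c) bind CDK4 and CDK6 and keep cyclin D away. CIP/KIP proteins (p21Cip1 from Cdkn1a and p27Kip1 from Cdkn1b) inhibit CDK2 complexes and also associate with cyclin D complexes. In the liver, cyclin D1 is known to be induced as quiescent hepatocytes enter the cycle, p21Cip1 restrains regenerating hepatocytes, and Cdkn2a is a known barrier to prolonged culture of mouse cells.

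Total counts ran from 17575998 to 20625957 per library. Values are CPM (counts scaled to library size, with TMM factors) within a gene, and the authors' FPKM (fragments scaled to depth and transcript length) where genes are set against each other. Nothing in the labels says that libraries of an origin came from separate mice or cultures, so p-values measure only the spread between these libraries, which may be technical. Hepatocyte markers were largely absent: Alb had 41 and 2 counts in HepLPC replicates 1 and 2 and 2 and 3 in NPC_LPC. Cyp2e1, Tat and Pck1 had none. The 10 markers together summed to 274 CPM in either HepLPC library and to 29.2 and 50.8 CPM in NPC_LPC, mostly Hnf4a. Of the 4 tested, edgeR called 1, Cebpa, higher in HepLPC, and DESeq2 called 3 higher (Cebpa, Hnf4a and Apoa1). Over all tested genes edgeR called 0.43% and DESeq2 12.3%. The 8 biliary and progenitor markers summed to 5771 and 3550 CPM in HepLPC and to 10536 and 5466 CPM in NPC_LPC, mostly Spp1 in NPC_LPC. Without Spp1 the sums were 2747 and 2645 CPM in HepLPC and 1596 and 1266 CPM in NPC_LPC, and 5 of the 8 markers lay above 0. DESeq2 called Spp1 lower and Krt19 higher in HepLPC. Of 6 endothelial and 6 leukocyte markers, the defining genes Pecam1 and Ptprc had at most 1 and 5 counts in a library. The endothelial sum was 5.97 to 7.44 CPM in HepLPC and 2.30 to 3.61 in NPC_LPC, and the leukocyte sum was 15.04 to 22.8 CPM in HepLPC and 20.8 to 79.9 in NPC_LPC, mostly Cd68. Stellate cell and myofibroblast markers (10 genes, Lrat and Lum at 0) summed to 539 and 683 CPM in HepLPC and to 2581 and 3684 in NPC_LPC, nearly all Fbln2. Fbln2 was called lower in HepLPC by DESeq2 (adjusted p = 1.67e-11) and was not called by edgeR (adjusted p = 0.057). Mesothelial markers (5 genes, mostly Msln) summed to 199 and 788 CPM in HepLPC and 579 and 232 in NPC_LPC. In bulk samples a smaller number of cells of a type and less RNA per cell cannot be told apart, and the part of these markers in the results below was not tested.

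All 10 members were detected in every library and passed the filter on low counts. The edgeR quasi-likelihood test called 0 of them between the origins at an adjusted p under 0.05, where it called 0.43% of all 12332 genes tested (0.227% higher in HepLPC and 0.203% lower), and the smallest adjusted p among the members was 0.158. The smallest absolute log2 fold change that edgeR called in any gene was 1.95, while the largest among the members was 0.81. The 0 calls thus do not show that the members were equal between the origins. At an unadjusted p under 0.05 edgeR had 3 members (Ccnd1 and Cdkn2a higher in HepLPC, Cdkn1b lower), against 21.9% of all genes (10.4% higher and 11.5% lower). DESeq2 called 1 member, Ccnd1, against 12.3% of all genes (5.81% higher and 6.5% lower). The libraries of the origins did not overlap in 6 of the 10 (Ccnd1, Cdk4 and Cdkn2a higher in HepLPC, Cdkn1b, Cdkn2b and Ccnd2 lower), near the 56.4% of all genes (27.9% higher and 28.6% lower). The median log2 fold change was -0.02 for the members and -0.003 for all tested genes, and the median absolute log2 fold change was 0.41 for the members and 0.48 for all.

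**Figure D1:**
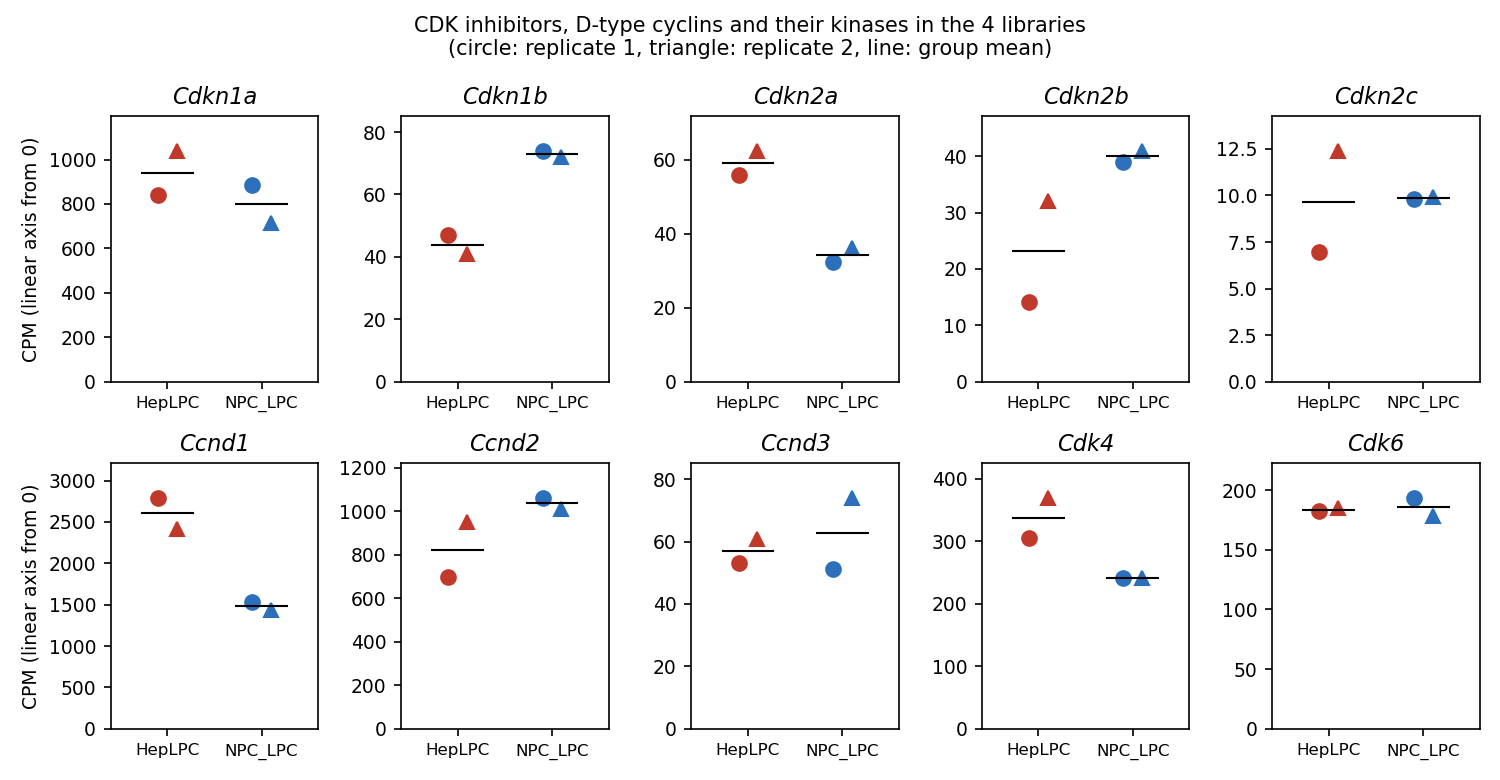
CPM of each member (vertical axis, linear, from 0, its own scale per panel) in the HepLPC (left, red) and NPC_LPC (right, blue) libraries, with circles for replicate 1, triangles for replicate 2 and a line at the group mean. Ccnd1, Cdk4 and Cdkn2a lie higher in both HepLPC libraries, Cdkn1b, Cdkn2b and Ccnd2 lower, and the HepLPC libraries are far apart for Cdkn2b (14.2 and 32.1 CPM).

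Ccnd1, which encodes cyclin D1 (chromosome 7, 144929931 to 144939831, GRCm38), was the most abundant member per length in every library and ranked between 66 and 152 among all genes by FPKM. Its level was 2790 and 2416 CPM in HepLPC replicates 1 and 2, against 1528 and 1440 CPM in NPC_LPC replicates 1 and 2. Both HepLPC libraries lay above both NPC_LPC libraries, and replicates differed 1.155-fold in HepLPC and 1.06-fold in NPC_LPC, less than the 1.75-fold between the means. The log2 fold change was 0.81 (SE 0.27, edgeR adjusted p = 0.175; DESeq2 adjusted p = 0.0177), so Ccnd1 rose in HepLPC by DESeq2 only. A gene on the opposite strand, Oraov1 in the files and LTO1 in GENCODE, shares 23.4% of the annotated exon bases of Ccnd1 and had only 197 to 408 counts per library, where Ccnd1 had 27858 to 50234.

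Ccnd2 and Ccnd3 encode the other two D-type cyclins. Ccnd2 (chromosome 6) was at 696 and 950 CPM in HepLPC, against 1060 and 1011 CPM in NPC_LPC, without overlap, but the gap between the HepLPC libraries (1.37-fold) was wider than that between the means (1.26-fold). Its log2 fold change was -0.33 (SE 0.28, edgeR adjusted p = 0.522), and it was -0.11 without HepLPC replicate 1 and -0.57 without HepLPC replicate 2. Ccnd3 (chromosome 17) was at 53.1 and 60.7 CPM in HepLPC, against 51.2 and 74.0 CPM in NPC_LPC, and the groups overlapped. Its log2 fold change was -0.14, with 2 SE on either side reaching from -0.70 to 0.42. Bysl, on the opposite strand, shares 4.11% of the annotated exon bases of Ccnd3. Bysl was at 114 and 82.9 CPM in HepLPC, against 52.3 and 49.7 CPM in NPC_LPC (adjusted p = 0.129 by edgeR and 0.0307 by DESeq2). The part of Bysl in the Ccnd3 counts was not tested.

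The shares of the D-type cyclin transcripts did not overlap between the origins. The shares are parts of a single sum, so a higher share of Ccnd1 lowers those of the other cyclins. Per length, Ccnd1 held 83.6% and 77.2% of the summed FPKM of the 3 cyclins in HepLPC replicates 1 and 2, against 66.7% and 64.8% in NPC_LPC. Ccnd2 held 13.3% and 19.0% in HepLPC and 29.05% in each NPC_LPC library, and Ccnd3 held 3.10% and 3.87% in HepLPC and 4.25% and 6.16% in NPC_LPC. Ccnd1 thus exceeded Ccnd2 6.29-fold and 4.07-fold in HepLPC and 2.30-fold and 2.23-fold in NPC_LPC, a ratio that does not depend on library scaling. The FPKM of the 3 cyclins summed to 664 and 629 in HepLPC and to 458 and 451 in NPC_LPC. No test of these shares was run, since the smallest p of an exact permutation test is 0.333 at 2 libraries per group.

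**Figure D2:**
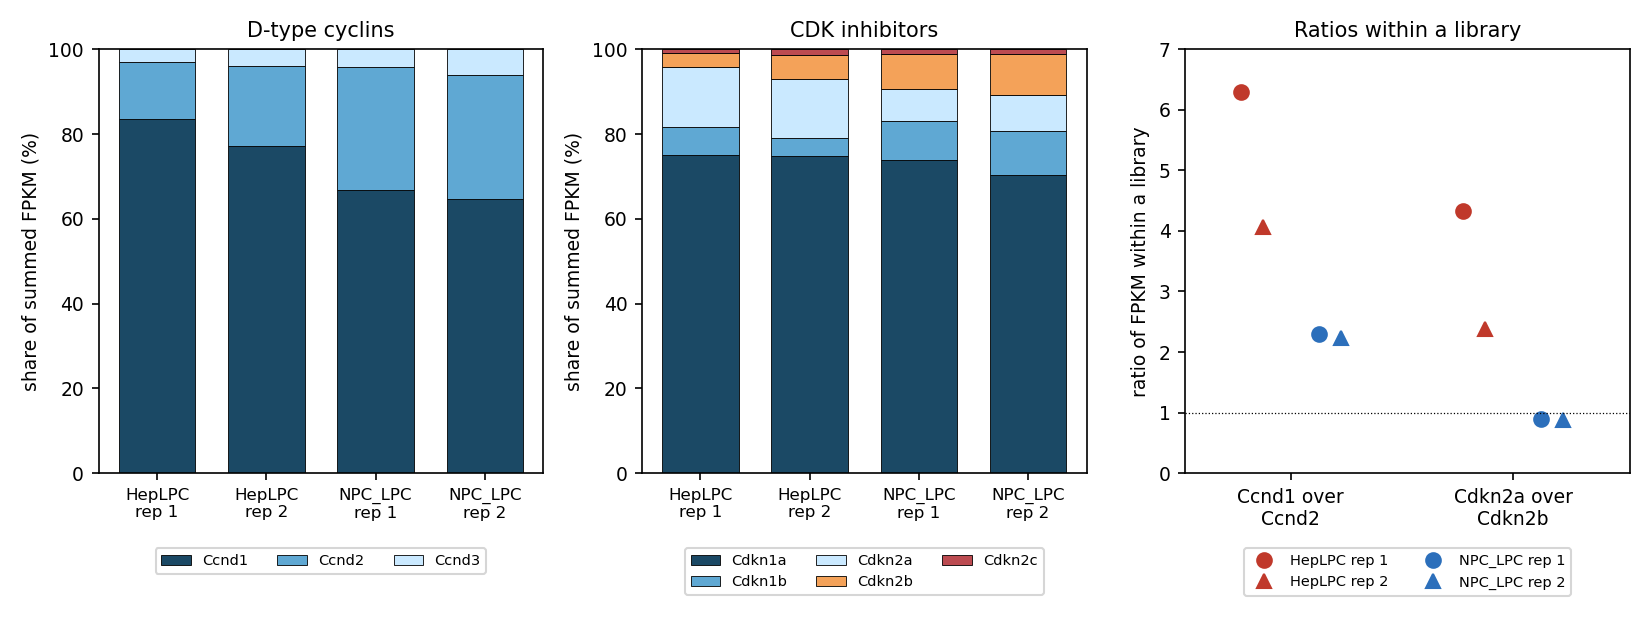
Shares of summed FPKM (vertical axis, %) held by each D-type cyclin (left) and each CDK inhibitor (middle) in the 4 libraries, and ratios of FPKM within a library (right; circles replicate 1, triangles replicate 2; HepLPC red, NPC_LPC blue; dotted line at 1). Ccnd1 holds 77.2% to 83.6% of the cyclin FPKM in HepLPC and 64.8% to 66.7% in NPC_LPC, and the ratio of Cdkn2a to Cdkn2b is above 2.3 in HepLPC and below 0.9 in NPC_LPC.

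Cdk4, a catalytic partner of the D-type cyclins (chromosome 10, 127063535 to 127067288), was the third most abundant member per length in all 4 libraries. Because its start region is rich in one short motif, the 250 bases before the RefSeq start are shown (GRCm38.p6, chr10:127063285-127063534, plus strand, RefSeq), with matches to the motifs named below in capitals:
Cdk4: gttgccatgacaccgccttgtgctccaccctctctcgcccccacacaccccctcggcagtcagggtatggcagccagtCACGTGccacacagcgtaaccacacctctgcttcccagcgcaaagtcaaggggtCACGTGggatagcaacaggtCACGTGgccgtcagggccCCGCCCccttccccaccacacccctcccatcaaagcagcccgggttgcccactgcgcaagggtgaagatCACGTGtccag
The window holds 4 copies of the E-box CACGTG, which MYC and other helix-loop-helix factors can bind, at 172, 118, 98 and 11 bases before the start, and 1 GC box. Among 32851 mouse promoter windows of this length 6.02% held at least 1 such E-box and 0.0213% held 4 or more. Cdk4 was at 305 and 369 CPM in HepLPC, against 241 CPM in each NPC_LPC library. The groups did not overlap, and the log2 fold change was 0.49 (SE 0.24, edgeR adjusted p = 0.298). Its HepLPC libraries differed 1.21-fold, against 1.40-fold between the means. Tspan31, on the opposite strand, shares 19.7% of the annotated exon bases of Cdk4 and was at 112 and 177 CPM in HepLPC, against 133 and 151 CPM in NPC_LPC. Whether counting used the strand is not given in the sources used here.

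Cdk6, the other partner kinase (chromosome 5), was the steadiest member. Its level was 183 and 185 CPM in HepLPC and 193 and 179 CPM in NPC_LPC, and the groups overlapped. The log2 fold change was -0.02 (SE 0.22, edgeR adjusted p = 0.973), with 2 SE on either side reaching from -0.46 to 0.42. Per length Cdk4 exceeded Cdk6 by far, holding 93.7% and 95.1% of their summed FPKM in HepLPC and 91.9% in each NPC_LPC library.

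Among the inhibitors Cdkn1a (chromosome 17, 29090979 to 29100722), the p53-inducible gene of p21Cip1, dominated in both origins. It held 75.04% and 74.7% of the summed inhibitor FPKM in HepLPC and 73.98% and 70.4% in NPC_LPC. Only Ccnd1 had a higher FPKM among the members in each library. Cdkn1a was at 842 and 1039 CPM in HepLPC, against 883 and 714 CPM in NPC_LPC, and the groups overlapped. Its log2 fold change was 0.24 (SE 0.28; adjusted p = 0.648 by edgeR), and it was 0.08 without HepLPC replicate 2, 0.09 without NPC_LPC replicate 2, 0.39 without HepLPC replicate 1 and 0.42 without NPC_LPC replicate 1. The replicates of either origin differed more (1.23-fold and 1.24-fold) than the means (1.18-fold).

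Cdkn1b, the gene of p27Kip1 (chromosome 6, 134920401 to 134925525), was lower in both HepLPC libraries. Its level was 46.9 and 41.0 CPM in HepLPC, against 73.9 and 71.9 CPM in NPC_LPC. The groups did not overlap, the means differed 1.66-fold and replicates by at most 1.14-fold. The log2 fold change was -0.73 (SE 0.23, edgeR adjusted p = 0.165; DESeq2 adjusted p = 0.0936).

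Cdkn2a and Cdkn2b lie next to each other on chromosome 4, with 11669 bases between them, and their levels lay in opposite directions between the origins. Cdkn2a (89274473 to 89294619) has a pair of promoters and first exons: the distal one starts the transcript of p19Arf, which stabilises p53, and the proximal one that of p16Ink4a, an inhibitor of CDK4 and CDK6. A single count per gene sums both transcripts, so p16Ink4a and p19Arf cannot be told apart in these values. Since these are 3 separate start regions, the 250 bases before each RefSeq start follow (GRCm38.p6, minus strand, RefSeq; in the order given, chr4:89294620-89294869, chr4:89282193-89282442 and chr4:89311033-89311282), with motif matches in capitals:
Cdkn2a distal: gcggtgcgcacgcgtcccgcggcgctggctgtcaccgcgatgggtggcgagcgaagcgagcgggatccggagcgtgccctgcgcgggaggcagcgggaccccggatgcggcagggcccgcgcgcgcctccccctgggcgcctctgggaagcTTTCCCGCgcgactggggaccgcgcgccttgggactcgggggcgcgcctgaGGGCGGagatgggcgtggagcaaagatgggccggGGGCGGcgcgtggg
Cdkn2a proximal: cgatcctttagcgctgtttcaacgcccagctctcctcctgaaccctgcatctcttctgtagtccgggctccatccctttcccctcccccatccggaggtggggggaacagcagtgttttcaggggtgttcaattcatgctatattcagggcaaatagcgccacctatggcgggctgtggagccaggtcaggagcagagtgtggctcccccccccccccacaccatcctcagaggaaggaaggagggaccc
Cdkn2b: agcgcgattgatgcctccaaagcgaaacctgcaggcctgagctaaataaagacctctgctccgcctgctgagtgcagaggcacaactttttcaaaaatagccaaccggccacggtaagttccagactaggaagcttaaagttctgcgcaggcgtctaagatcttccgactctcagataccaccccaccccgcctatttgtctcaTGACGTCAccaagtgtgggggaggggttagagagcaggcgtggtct
The distal Cdkn2a window is 78.4% G and C and holds the E2F motif TTTCCCGC, present in 0.895% of all windows, at 99 bases before the start and 2 GC boxes (GGGCGG or its reverse complement, in 32.7% of windows). The proximal window, 60.0% G and C, held none of the motifs searched. Cdkn2b, 53.6% G and C, holds the cyclic AMP response element TGACGTCA (1.55% of windows) at 46 bases before the start. The motifs searched, on both strands and chosen after the sequences were seen, were these 4, TGANTCA (AP-1; 6.75% of windows) and TATAAA (12.4%); no 2 matches overlapped in the windows shown. A match describes the sequence and does not show binding.

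Cdkn2a reached 55.9 and 62.4 CPM in the HepLPC libraries, against 32.4 and 36.1 CPM in NPC_LPC. Both HepLPC libraries were higher, the means differed 1.73-fold, and replicates of either origin differed 1.12-fold. The log2 fold change was 0.79 (SE 0.25, edgeR adjusted p = 0.158; DESeq2 adjusted p = 0.0698). The FPKM differed somewhat more than the counts: 50.7 and 63.9 in HepLPC, against 29.2 and 29.3 in NPC_LPC. On a log2 scale the FPKM per CPM of Cdkn2a, set against the median gene of each library, was 2.07 and 2.21 in HepLPC and 2.11 and 1.91 in NPC_LPC, a range of 0.31, where the other members had ranges of at most 0.165. The transcripts of the 2 promoters differ in length, and their part in that range was not tested.

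Cdkn2b, the gene of the transforming growth factor beta-inducible inhibitor p15Ink4b (89306289 to 89311032), was at 14.2 and 32.1 CPM in HepLPC, against 39.1 and 40.9 CPM in NPC_LPC. Both HepLPC values were lower, but they differed 2.26-fold from each other, more than the 1.73-fold between the means, with counts of 256 and 570. The log2 fold change was -0.79 (SE 0.43, edgeR adjusted p = 0.339). Without HepLPC replicate 1 it was -0.30 and without HepLPC replicate 2 it was -1.49. By FPKM Cdkn2a exceeded Cdkn2b 4.33-fold and 2.38-fold in HepLPC, while it was at 0.896 and 0.883 of Cdkn2b in NPC_LPC. This ratio was chosen after its values were seen. Cdkn2a held 14.2% and 13.9% of the inhibitor FPKM in HepLPC and 7.47% and 8.49% in NPC_LPC, and Cdkn2b held 3.29% and 5.82% in HepLPC and 8.34% and 9.62% in NPC_LPC. The sum of the 3 INK4 genes was 65.8 and 96.8 FPKM in HepLPC and 66.3 and 66.7 FPKM in NPC_LPC, with overlap.

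Cdkn2c, the gene of p18Ink4c (chromosome 4, 109660876 to 109666756), was the least abundant member. Its level was 6.94 and 12.4 CPM in HepLPC and 9.82 and 9.90 CPM in NPC_LPC, so that the HepLPC libraries lay on either side of NPC_LPC. The log2 fold change was -0.03, with 2 SE on either side reaching from -0.89 to 0.83.

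The 3 INK4 genes share chromosome 4, and most expressed genes there had lower levels in HepLPC. The median log2 fold change of the 724 other tested genes of chromosome 4 was -0.61, against medians between -0.11 and 0.16 for the chromosomes of the other members. Among the 520 chromosome 4 genes with a mean of at least 10 CPM, the median log2 deviation from the mean of the 4 libraries was -0.45 and -0.08 in HepLPC replicates 1 and 2 and 0.25 and 0.30 in NPC_LPC, and 86.2% were lower in HepLPC. The HepLPC library with the lower chromosome median was also the one with the lower Cdkn2a, Cdkn2b and Cdkn2c. Relative to its chromosome, the log2 fold change was -0.17 for Cdkn2b, 0.58 for Cdkn2c and 1.40 for Cdkn2a, while the values of the 7 members elsewhere moved by at most 0.16. Of the listed neighbours of the locus, Klhl9, an adaptor of a ubiquitin ligase, was at 32.9 and 56.7 CPM in HepLPC, against 80.96 and 65.9 in NPC_LPC, for a log2 fold change of -0.71 (edgeR adjusted p = 0.28). Mtap, a methionine salvage enzyme, was lower by less (log2 fold change -0.25, adjusted p = 0.574), Tusc1 was at or below 2.48 CPM, and Dmrta1 and Elavl2 were too low to test. The part of the chromosome-wide shift in the INK4 values was not tested.

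**Figure D3:**
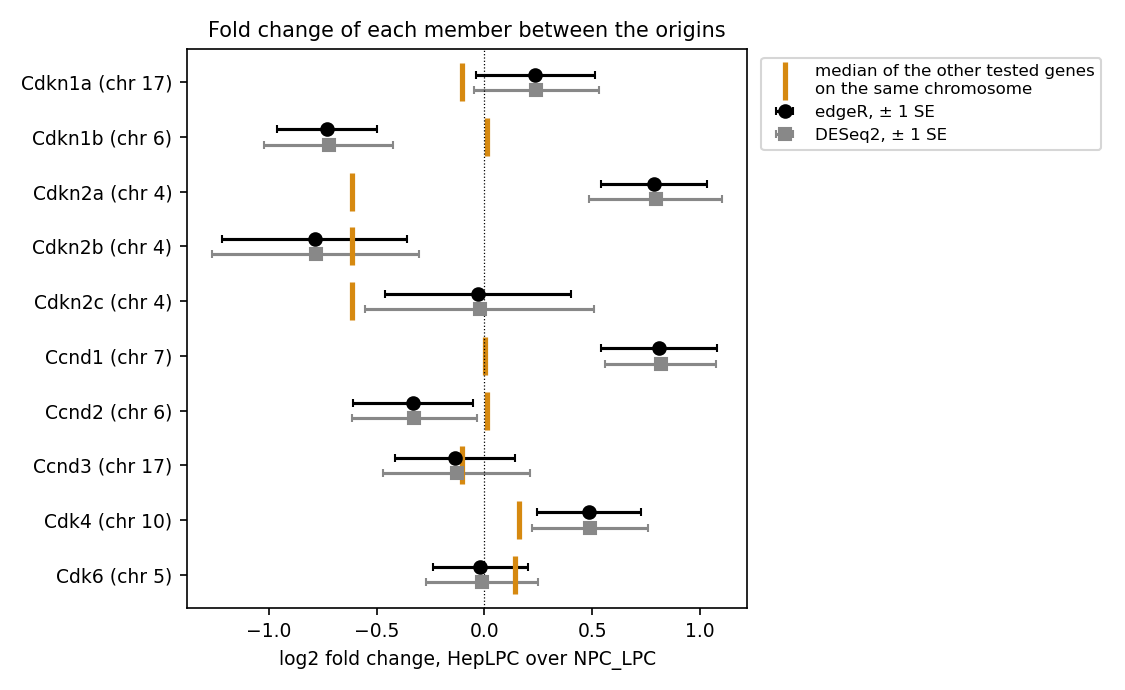
Log2 fold change, HepLPC over NPC_LPC (horizontal axis), of each member by edgeR (black circles) and DESeq2 (grey squares), with bars of 1 SE, and the median of the other tested genes on the same chromosome (orange marks). Ccnd1 (0.81) and Cdkn2a (0.79) lie to the right and Cdkn1b (-0.73) and Cdkn2b (-0.79) to the left, with the median of chromosome 4 at -0.61.

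Per length the members kept nearly the same order in both origins. Ccnd1, Cdkn1a, Cdk4 and Ccnd2 came in that order in all 4 libraries. In HepLPC their FPKM was 520 ± 49.3, 306 ± 54.4, 263 ± 39.6 and 104 ± 21.9 (SD, n = 2), where Cdkn1a and Cdk4 overlapped in range. In NPC_LPC it was 299 ± 9.56, 266 ± 32.8, 179.5 ± 0.438 and 132 ± 1.503 (SD, n = 2), where the lower Ccnd1 value (292) was close to the higher Cdkn1a value (289). Cdkn2a ranked 5 in both HepLPC libraries (57.3 ± 9.33 FPKM) and 7 in both NPC_LPC libraries (29.2 ± 0.061), where Cdkn1b ranked 5 (35.4 ± 0.116, against 21.5 ± 2.46 in HepLPC). Cdkn2b was at 19.3 ± 10.7 FPKM in HepLPC and 32.9 ± 0.398 in NPC_LPC, and Ccnd3 at 22.5 ± 2.63 in HepLPC and 23.6 ± 5.87 in NPC_LPC. Cdk6 was at 15.4 ± 0.544 FPKM in HepLPC and 15.8 ± 0.136 in NPC_LPC, and Cdkn2c at 4.69 ± 1.92 in HepLPC and 4.37 ± 0.177 in NPC_LPC. Ccnd3, Cdkn1b and Cdkn2b overlapped in range in HepLPC. The summed inhibitors stood at 0.537 and 0.733 of the summed D-type cyclins in HepLPC and at 0.853 and 0.765 in NPC_LPC, without overlap but with a difference close to its spread (-0.17, SD of the difference 0.15). In CPM the ratio was 0.273 and 0.346 in HepLPC and 0.393 and 0.346 in NPC_LPC, with overlap (difference -0.06).

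The genes whose pattern over the 4 libraries was most like that of the members with the smallest p were named by a fixed rule. For Cdkn2a they were Cry1, Desi1 and Asb8, with root mean square differences of 0.02 to 0.03 on centred log2 CPM. For Cdkn1b they were Fcho2, Zfp958 and Zc2hc1a, with differences of 0.009 to 0.03. These were the closest of 10267 genes over only 4 libraries. A close match in such a search does not show shared regulation, which was not tested.

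Downstream and upstream genes of the RB pathway were described from 7 lists, and edgeR called 0 of their 65 tested genes, with p adjusted over all genes. An unadjusted edgeR p under 0.05 was found for 12 of them (18.5%, against 21.9% of all genes), and DESeq2 called 6 (9.23%, against 12.3% of all genes), all higher in HepLPC. RB family and E2F genes went both ways: 7 of 13 lay above 0, and the median was 0.07 (log2 fold change). Rb1, the RB gene, was at 18.8 and 25.7 CPM in HepLPC, against 34.4 and 31.98 CPM in NPC_LPC, for a log2 fold change of -0.58 (SE 0.30, edgeR adjusted p = 0.315). E2f2, an activating E2F, was at 10.3 and 10.5 CPM in HepLPC, against 3.02 and 7.13 CPM in NPC_LPC, for a log2 fold change of 1.04 (adjusted p = 0.314).

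E2F target genes of DNA synthesis had fold changes above 0 in 15 of 15 cases. Their median was 0.78 (log2 fold change), against -0.003 over all tested genes. The libraries of the origins did not overlap in 10 of the 15, against 56.4% of all genes. HepLPC replicate 2 lay below NPC_LPC replicate 2 for Mcm2, Mcm6, Rrm1, Tk1 and Cdc6. DESeq2 called 2 of the 15, against 12.3% of all genes, and both are described next. Rrm2, a subunit of ribonucleotide reductase, was at 461 and 420 CPM in HepLPC, against 144 and 226 CPM in NPC_LPC, for a log2 fold change of 1.25 (SE 0.30, edgeR adjusted p = 0.109; DESeq2 adjusted p = 0.00261). Cdt1, a licensing factor of replication origins, was at 51.4 and 48.05 CPM in HepLPC, against 25.6 and 22.2 CPM in NPC_LPC, for a log2 fold change of 1.06 (adjusted p = 0.109; DESeq2 adjusted p = 0.0134). The 15 genes together came to 2727 and 1934 CPM in HepLPC and to 1022 and 1647 CPM in NPC_LPC. The 8 proliferation markers came to 2200 and 1310 CPM in HepLPC and to 793 and 1485 CPM in NPC_LPC. DESeq2 called 1 of these 8, Ccnb1, higher in HepLPC, against 12.3% of all genes. The sums of the proliferation markers, mostly Mki67 and Top2a, overlapped between the origins, and those of the E2F targets did not. Gene by gene, 8 of 8 proliferation markers lay above 0 with a median of 0.88 (log2 fold change). An unadjusted edgeR p under 0.05 was found for 5 of the 8, against 21.9% of all genes. The origins did not overlap in 5 of the 8, against 56.4% of all genes. For Mki67, Top2a and Bub1, HepLPC replicate 2 lay below NPC_LPC replicate 2.

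Genes of cyclin E, cyclin A and CDK2, listed with Cdc25a, Cdk7, Ccnh and Mnat1, had fold changes above 0 for 8 of 8. Their median was 0.25, and 0 were called by edgeR or DESeq2. An unadjusted edgeR p under 0.05 was found for 1 of the 8, against 21.9% of all genes. The origins did not overlap in 3 of the 8, against 56.4% of all genes. Ccna2, cyclin A2, was at 267 and 184 CPM in HepLPC, against 79.2 and 152 CPM in NPC_LPC, for a log2 fold change of 0.97 (SE 0.39, edgeR adjusted p = 0.225). Cdc25a, a phosphatase that activates CDK2, was at 65.8 and 46.5 CPM in HepLPC, against 24.5 and 46.8 CPM in NPC_LPC (adjusted p = 0.378), with overlap. The remaining CDK inhibitors were scarce: Cdkn1c, the gene of p57Kip2, was at 1.83 and 2.70 CPM in HepLPC, against 1.97 and 0.644 CPM in NPC_LPC, and Cdkn2d, the gene of p19Ink4d, at 4.78 and 4.45 CPM in HepLPC, against 3.84 and 8.71 CPM in NPC_LPC.

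Genes that control the stability of the members' proteins were mixed, 4 of 10 above 0, with a median of -0.14 and 0 called by edgeR or DESeq2. Cks1b, a cofactor in the degradation of p27Kip1, was at 57.4 and 66.1 CPM in HepLPC, against 22.6 and 43.1 CPM in NPC_LPC, for a log2 fold change of 0.91 (SE 0.37, edgeR adjusted p = 0.229). These values are of RNA, and protein levels were not measured. Usp2, a deubiquitinase reported to stabilise cyclin D1 in human cells, was at 0.444 and 0.507 CPM in HepLPC, against 2.52 and 2.28 CPM in NPC_LPC, for a log2 fold change of -2.32 (adjusted p = 0.147).

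Of 14 regulators of the members' transcription, 11 had fold changes above 0 (median 0.35). DESeq2 called 4 of the 14, against 12.3% of all genes. An unadjusted edgeR p under 0.05 was found for 5 of the 14, against 21.9% of all genes. Tbx3, a T-box repressor of the Arf promoter, was at 10.6 and 10.98 CPM in HepLPC, against 1.54 and 0.495 CPM in NPC_LPC, for a log2 fold change of 3.41 (SE 0.67, edgeR adjusted p = 0.0828; DESeq2 adjusted p = 1.14e-04). Id1, an inhibitor of helix-loop-helix factors, was at 83.2 and 142 CPM in HepLPC, against 45.4 and 40.5 CPM in NPC_LPC, for a log2 fold change of 1.39 (adjusted p = 0.102; DESeq2 adjusted p = 0.00383). The other DESeq2 calls, named after their values were seen, were Ezh2, the histone methyltransferase of the polycomb complex that silences the Cdkn2a locus, and Myc. Ezh2 was at 259.3 and 162 CPM in HepLPC, against 72.1 and 97.8 CPM in NPC_LPC (edgeR adjusted p = 0.114). Myc, whose product binds the E-box, was at 249 and 226 CPM in HepLPC, against 49.9 and 138 CPM in NPC_LPC, for a log2 fold change of 1.34 (SE 0.49, edgeR adjusted p = 0.196; DESeq2 adjusted p = 0.0448). Trp53, the p53 gene upstream of Cdkn1a, was at 314 and 259.4 CPM in HepLPC, against 195 and 250.2 CPM in NPC_LPC, and was also named after its values were seen (edgeR adjusted p = 0.453).

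**Figure D4:**
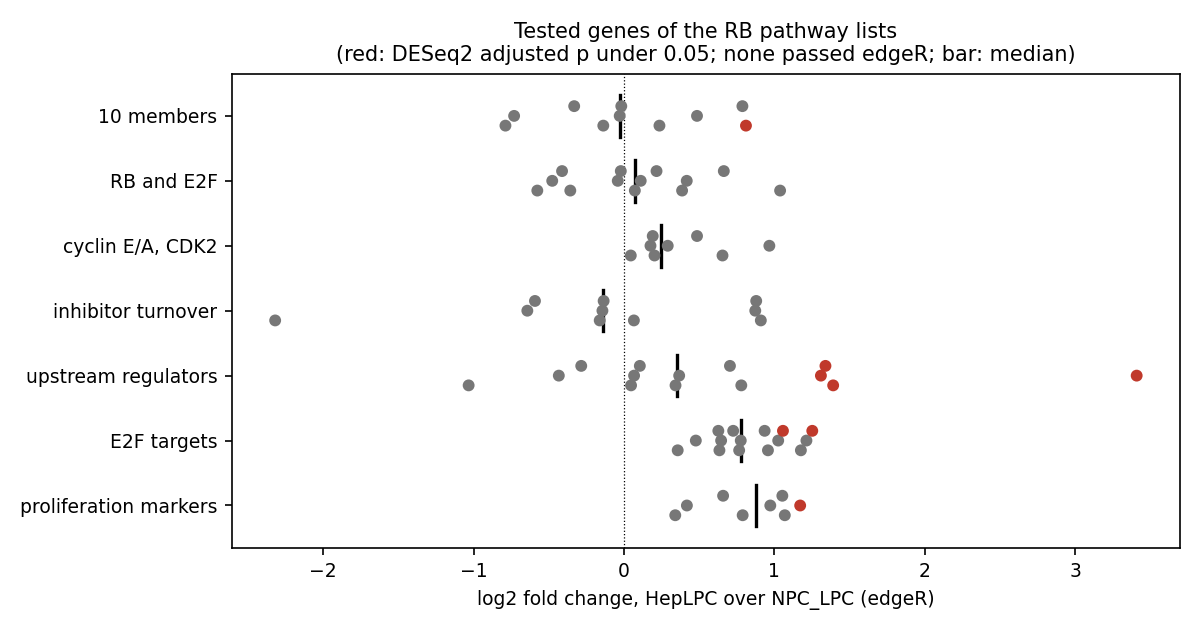
Log2 fold change by edgeR, HepLPC over NPC_LPC (horizontal axis), of the members and of each tested gene in the pathway and proliferation lists (points; vertical offsets only separate them), with the list median as a bar and genes of DESeq2 adjusted p under 0.05 in red. All 15 E2F targets lie above 0 with a median of 0.78, while the 10 members are spread around a median of -0.02.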

How the data were processed

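Per the labels' protocols, polyadenylated RNA of 4 libraries was sequenced paired-end with a strand-keeping kit. Trimmomatic, HISAT2, Cufflinks, HTSeq and DESeq are named, with build mm10, per the submitters' processing notes. For versions, annotation and strand setting: not given in the sources used here. Per the file headers, the authors gave a read count and an FPKM per gene symbol, and the deposited counts are whole numbers. A header spelled fpmk was read as FPKM, since its values related to the counts as in the other tables (lowest r across genes 0.995).

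Counts of all genes were fitted with edgeR 4.0.16 (R 4.3.3; TMM, filterByExpr, quasi-likelihood, group as the only term, Benjamini-Hochberg over 12332 genes, threshold 0.05, two-sided). SEs were derived from the F statistic, and fold changes are HepLPC over NPC_LPC. The code was tested on simulated data. A floor of 3 counts equals 0.145 to 0.171 CPM of library totals and covers counting error only. Alternatives were other scalings and filters, DESeq2 1.42.0, limma 3.58.1 (voom, or log2 FPKM with pseudocounts of 0.1 or 1), a replicate block, each library left out, a threshold of 0.01 and chromosome medians subtracted. Positions and promoters came from RefSeq (GRCm38.p6, the assembly of mm10; all 10 members matched by symbol, 8 with a promoter), overlaps from GENCODE M21. Members, lists and tests were chosen with earlier results of these data known. Named genes were the members, from each of 7 pathway lists those past the threshold or else the 2 with the smallest p, and the 3 genes nearest in pattern to the 2 members with the smallest p (mean of at least 5 CPM, 0.5 added before the log). Libraries of an origin differed far beyond sampling noise (chi-square per degree of freedom 91.5 and 110).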

Additional observations from a re-analysis of the deposited data

How the results depend on the processing

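The count of genes called moved with the processing, and that of the members was 0 or 1. A count over all genes and a count over 10 members cannot be set against each other in size. Against 53 genes, edgeR called 593 without the filter, 106 with a mean of at least 10 CPM and 0 at a threshold of 0.01, DESeq2 called 1517, limma-voom 5, and limma on log2(FPKM + 1) 111 with a mean of at least 0.5 and 0 without a filter. Leaving out each library gave 0 to 377 genes, with 0 without HepLPC replicate 1 or 2, 377 without NPC_LPC replicate 1 and 107 without NPC_LPC replicate 2; a lone library is then assumed to vary like the other group. With the replicate number as a block 136 genes were called and 0 members. Same-numbered libraries did not deviate together (r = -0.02 across genes). At 2 libraries per group this r cannot settle whether same-numbered libraries were prepared together. DESeq2 called 1 member, Ccnd1, and the other alternatives run called 0, as did leaving out each library (0 to 0). Ccnd1 had adjusted p from 0.0177 to 0.382 over its alternatives, Cdkn2a from 0.0698 to 0.436 and Cdkn1b from 0.0936 to 0.432.

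Of 169 member values under alternatives, 8 changed sign, all in members with a fold change near 0. Cdkn2c ran from -0.51 to 0.34 with each library left out (0.34 without HepLPC replicate 1) and was at 0.04 in the 3 fits on FPKM (0.041, 0.043 and 0.043) and 0.58 with the chromosome median subtracted, Ccnd3 ran from -0.36 to 0.15 (0.15 without NPC_LPC replicate 2), and Cdk6 from -0.075 to 0.059 (0.0028 without HepLPC replicate 1, 0.059 without NPC_LPC replicate 1). The cause was not tested. The other scalings shifted the median of all genes by at most 0.013. In CPM and not per length, the difference between origins in the share of inhibitors was 1.89 percentage points for Cdkn2a and -2.14 for Cdkn2b, against 6.06 and -4.42 by FPKM, and that of Cdk4 in its pair was 8.16, against 2.53, as short transcripts weigh less in CPM. Leaving out each library gave 11.4 to 17.9 points for Ccnd1, -15.8 to -10.1 for Ccnd2, -2.67 to -0.763 for Ccnd3, 0.903 to 4.45 for Cdkn1a, -5.37 to -3.14 for Cdkn1b, 5.55 to 6.58 for Cdkn2a, -5.69 to -3.16 for Cdkn2b, -0.255 to 0.124 for Cdkn2c, 1.84 to 3.22 for Cdk4 and -0.272 to -0.0755 for the ratio of inhibitors to cyclins.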
